A study of Mus musculus with 4 samples.

Results

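The comparison set out here is between p53-/- mouse fetal liver progenitor cells labelled c-Myc and the non-transformed cells of the same source, 2 of the 4 samples in the series, with 1 Affymetrix mouse expression array each. It was chosen by the sample labels and taken over all 34945 probe sets that the platform annotation assigns to a single gene, out of 45101 on the array, which stand for 18193 genes. Fetal liver progenitors are the embryonic precursors of hepatocytes and of the bile duct lining. The other 2 arrays hold the same progenitors labelled H-RasV12, an activated form of a small GTPase, and myr-Akt, the kinase AKT1 held at the membrane by a myristoyl group. For part of the genes their signals are given beside those of the 2 arrays compared. All 4 groups share the deletion of p53 and a medium that held HGF at 50 ng/ml, EGF at 20 ng/ml, 10% serum and dexamethasone. How c-Myc was introduced, whether each culture was 1 clone or a pool, and the age of the embryos were not stated in the labels. With 1 array a side there is no spread between cultures, so sizes and the accord between probe sets of a gene are described and no test was run.

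MYC is a transcription factor that pairs with MAX and binds the DNA sequence CACGTG, called an E-box. MXD proteins and MNT compete for MAX and oppose it. MYC is known for raising genes of RNA polymerases I and III, ribosome assembly, nucleotide synthesis and mitochondrial function, and for lowering inhibitors of the cell cycle and genes of matrix and adhesion. In liver it is known for driving the growth of progenitors and tumours.

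The targeted gene was looked at first. Myc had signals of 2285, 1747, 639.7 and 420.6 on the arrays labelled non-transformed, H-RasV12, myr-Akt and c-Myc, the order in which 4 signals are given throughout. By its 1 probe set Myc was thus lowest where the label names it, with a log2 difference of -2.44 from non-transformed. The sources used here do not say whether that probe set detects the introduced sequence, so the Myc signal does not check the label, and every direction below rests on that label. Signals are MAS5 intensities scaled to a common trimmed mean of 500.003, and values under a floor of 100.001 have no order.

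The label liver progenitor was set against its defining markers on the 2 arrays. On each array most of them lay under or near the floor. The name is kept as the source gives it, and most of its markers did not bear it out. The fetal liver protein gene Afp had signals of 13 and 6.4, albumin (Alb) 3.7 and 26.6, and the hepatocyte factor Hnf4a 5.3 and 3.9 on the arrays labelled non-transformed and c-Myc, all under the floor. The hepatoblast gene Dlk1 was near the floor on the non-transformed array and far above it on the array labelled c-Myc (116.7 and 1898). The epithelial genes Epcam (112.1 and 84.0) and Cdh1 (114.8 and 53.5) lay at or near the floor, as did the duct factor Sox9 on the array labelled c-Myc (388.4 and 36.6). Krt19, a duct keratin, was well above it at 2322 and 1804, while the simple-epithelium keratins Krt18 (3690 and 337.3) and Krt8 (600.7 and 48.8) were lower on the array labelled c-Myc. Of 26 stellate and mesothelial markers with a probe set, genes of the liver's pericytes and surface lining, 19 passed the floor on either array. Their summed signal was 137681 on the non-transformed array and 91166 on the array labelled c-Myc, and it included the mesothelial genes Upk3b (15167 and 11557) and Wt1 (3419 and 3438). Markers of the macrophage (2 of 17 above the floor on either array), the endothelium (3 of 17) and red and other blood cells (1 of 15) were nearly all under the floor. The macrophage genes Adgre1, Ptprc and Lyz2, the endothelial genes Pecam1 and Cdh5 and the erythroid genes Gata1 and Alas2 were among those under it on both arrays, with signals of 29.6 or less.

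Of the 18193 genes, 10420 passed the floor on 1 or both of the 2 arrays and are called measured. Each is represented by its brightest single-gene probe set. A gene past 2-fold is said to be called higher or lower on the array labelled c-Myc. There were 472 genes called higher (4.53% of those measured) and 1211 called lower (11.6%). Counts of gene lists below are to be read against these shares. By probe set, 823 of 18416 were called higher (4.47%) and 1809 lower (9.82%). Larger sizes lay mostly on the lower side, with 34 genes (0.326%) at least 4-fold higher against 351 (3.37%) lower. At 8-fold there were 8 (0.0768%) against 100 (0.96%). The median over all measured genes was -0.01 on the log2 scale, and among the 9288 genes above the floor on both arrays the 5 and 95 percentiles were -1.42 and 0.98. The higher genes had a median signal of 475.4 on the non-transformed array and 1164 on the array labelled c-Myc, and the lower genes 729.6 and 188.8. Of the lower genes, 374 were at the floor on the array labelled c-Myc, and 43 of the higher genes were at the floor on the other, so that their sizes are bounds, written as at least N-fold.

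**Figure D1:**
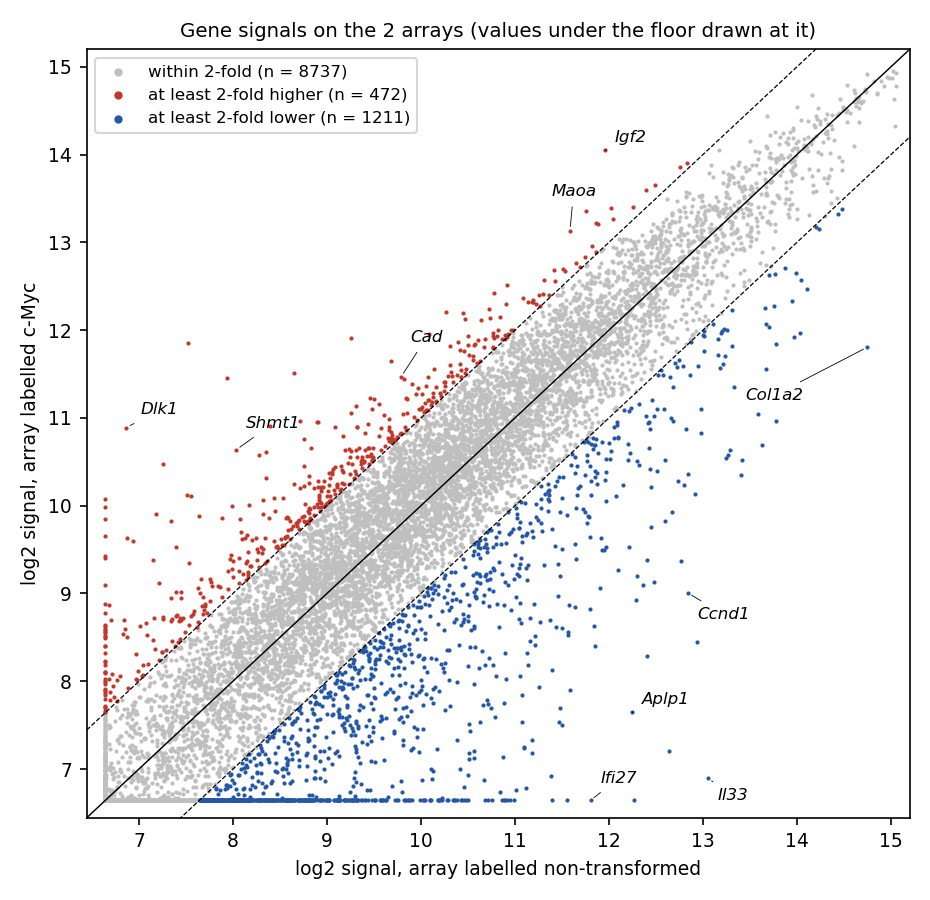
Log2 signal of each of the 10420 measured genes on the array labelled non-transformed (horizontal) and on the array labelled c-Myc (vertical), with the dashed lines at 2-fold and values under the floor drawn at it. The 1211 lower genes fan out to the floor while the 472 higher ones stay closer to the diagonal.

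Different probe sets of a gene are the only repeat measurement these 2 arrays hold, and they share RNA, labelling and array. Of the 472 higher genes, 206 had a further measured probe set. In 197 of these (95.6%) all further probe sets had the direction of the brightest, and in 75 (36.4%) every one also passed 2-fold. Of the 1211 lower genes, 503 had a further measured probe set, with 495 (98.4%) in the same direction and 234 (46.5%) all past 2-fold. Direction was shared by all measured probe sets in 74.4% of the 4811 genes of any size that had several. Of the 1683 genes called either way (16.2%), 665 had no other single-gene probe set.

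Between the brightest and the next brightest probe set of 4096 genes, both above the floor on both arrays, the log2 differences correlated with a Pearson r of 0.835 and a Spearman rho of 0.781. This is across genes of 1 pair of arrays, and genes are not independent replicates. The median disagreement was 0.20 on the log2 scale, and 83.2% of pairs agreed within 0.5. Among the 636 genes whose dimmer probe set had a signal under 200 it was 0.32, and among the 418 at 3200 or more it was 0.10. Only Mtm1, a lipid phosphatase gene, and Nono, which encodes an RNA-binding protein, had probe sets past 2-fold in opposite directions. Mtm1 gave 2.22 by the highest and -1.02 by the lowest, and Nono 1.02 and -1.61.

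**Figure D2:**
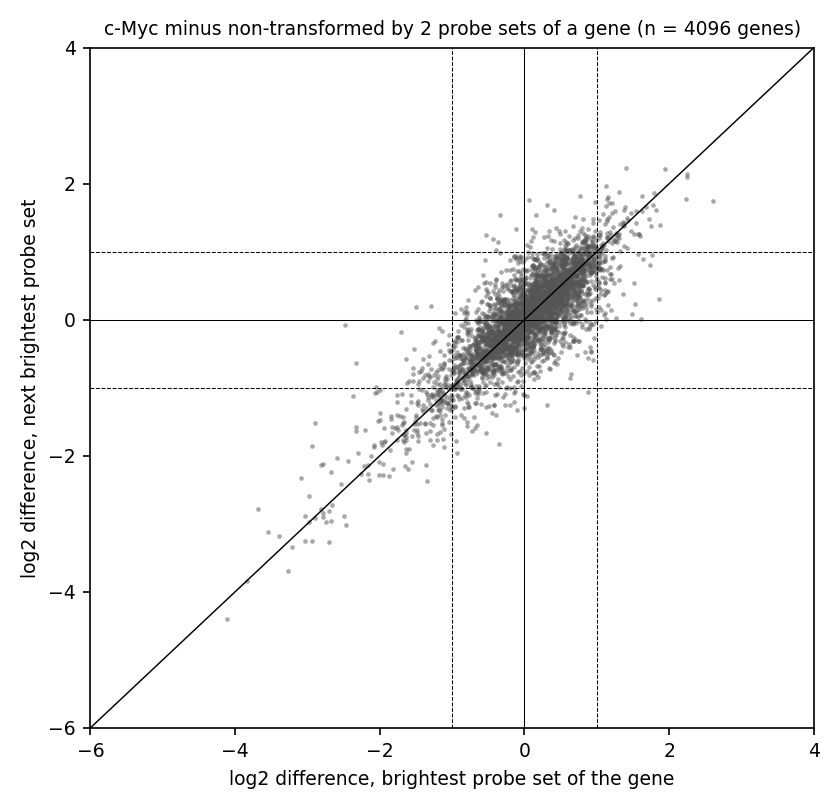
Log2 difference (c-Myc minus non-transformed) by the brightest (horizontal) and the next brightest (vertical) probe set of 4096 genes for which both were above the floor on both arrays, with the diagonal drawn and dashed lines at 2-fold. The points follow the diagonal (Pearson r 0.835), and 83.2% of pairs agreed within 0.5. Pairs in the quadrants of opposite direction were not counted.

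Among genes whose every measured probe set passed 2-fold upward, ranked by the smallest of these, the metabolic genes Shmt1, Cad, Maoa and Isoc1 and the growth genes Noc2l and Taf4b stood in the first 12. Shmt1 encodes the cytosolic serine hydroxymethyltransferase, which feeds one-carbon units to nucleotide synthesis. Its signals were 262.6, 608.3, 688.8 and 1593, highest on the array labelled c-Myc, and its 4 probe sets lay between 1.72 and 2.60. Cad, the enzyme that begins pyrimidine synthesis, had signals of 884.8, 1681, 2353 and 2835 and probe sets at 1.65 and 1.68. Maoa, a mitochondrial monoamine oxidase, had 3072, 1939, 7936 and 8987 (1.55 and 1.60). These 3 genes were measured well above the floor on all 4 arrays, and each was higher on the array labelled c-Myc than on any other. Isoc1 (4 probe sets from 1.58 to 2.04), the fibrillin gene Fbn2 (1.62 and 1.82) and Taf4b, a subunit of a general transcription factor (1.78 and 2.23), were also in the first 12. Isoc1 and Fbn2 were brighter on the array labelled myr-Akt than on that labelled c-Myc (2523 against 2125, and 2397 against 2244). Depp1 (signals 90.6 and 1081), the vasopressin receptor gene Avpr1a (199.7 and 945.7), the pantetheinase Vnn1 (269.0 and 920.8) and the basal keratin gene Krt14 (38.5 and 674.9) completed these with Rapgef5, an exchange factor for Rap GTPases, which was at least 7.41-fold higher by its smaller probe set.

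The same ranking downward began with Ifi27 and Aplp1. Ifi27, an interferon-induced gene, had signals of 3580.4, 2311, 159.2 and 67.4, and was at least 18.7-fold lower by the smaller of its 2 probe sets. Aplp1, a relative of the amyloid precursor gene, had 4862, 793.5, 701.8 and 200.1 (-3.33 as a bound, and -4.60). Mmp2, a gelatinase that digests collagen IV, had 5254, 2406, 358.8 and 546.3 (-3.27 and -3.70). Ifi27 and Aplp1 were lowest on the array labelled c-Myc, whereas Mmp2 was lower still on that labelled myr-Akt. Ccnd1, which encodes cyclin D1, had 7334, 13638, 517.4 and 514.4, and its 3 probe sets lay between -3.84 and -3.05. Serpinf1, an angiogenesis inhibitor (1862 and 39.8 on the 2 arrays), Dap, a regulator of autophagy (6945 and 660.3), Niban1 (2151 and 184.9), the filamin-binding Fblim1 (1585 and 186.2), Col8a1 (1907 and 99.8), S100a16 (1237 and 89.0), the metalloprotease Mmp23 (1049 and 100.1) and the stress gene Nupr1 (3562 and 453.9) made up the rest.

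By signal, the brightest gene that was at least 2-fold higher was Igf2, an imprinted fetal growth factor. Its signals were 3975, 621.2, 8384 and 16943, a 4.26-fold difference between the 2 arrays compared (log2 2.09), with at least 1.48 by its other probe set. It was followed by Plagl1, an imprinted zinc-finger regulator (7277 and 15323), and Ahcy, which clears S-adenosylhomocysteine (6939 and 14842). Next came Pa2g4, a factor of ribosome assembly and growth control (5748 and 12838), and the nucleolar methyltransferase Fbl (5364 and 12360, log2 1.20). Plagl1 passed 2-fold by 1 of 3 probe sets (0.62 to 1.07), and Pa2g4 by all 5 (1.08 to 1.94). The brightest lower gene was Col1a2, a chain of type I collagen, at 27502, 21412, 15479 and 3578 (log2 -2.94). Hspb1, a small heat shock protein (22814 and 10674), Col4a1, a basement membrane collagen (22126 and 10250.2), Lox, which crosslinks collagen (17628 and 5664), Timp3, a metalloprotease inhibitor (16923 and 6093), and Fbln2 (16811 and 4012) were also among the 8 brightest.

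Of 21 genes of the MYC, MAX and MXD network with a probe set, 18 were measured (median 0.13). Of these 2 were called higher (11.1%, against 4.53% of all measured genes) and 1 lower (5.56%, against 11.6%). Myc was the lower one. Ruvbl2, an ATPase of chromatin complexes that MYC recruits, had signals of 2320, 3914, 4887 and 5109 (log2 1.14), and Mlxip, a factor of the network that senses glucose products, had 445.2, 476.1, 737.6 and 893.7 (1.01). Mlxip was under 2-fold with median scaling (0.95) and with a pseudocount instead of the floor (0.87). Mnt, which competes for MAX, was at 0.93, Ruvbl1 at 0.90, Max at 0.71, Mxi1 at 0.69, Zbtb17, the partner through which MYC lowers genes, at 0.55, and Mga at 0.52. Mxd3 (0.22), Fbxw7, which targets MYC for destruction (0.05), Usp28 (0.05), Mlx (-0.07), Trrap (-0.13), Pim1 (-0.19), Mxd4 (-0.28) and Mxd1 (-0.40) were within 2-fold. Mycn, the related oncogene, was the brightest of the network at 25881, 23651, 26244 and 23750 (-0.12). Of its other probe sets, 1 had signals of 327.9 and 347.0 on the 2 arrays, so that the probe sets of Mycn differ widely in level. Mycl, Mlxipl and Bhlha15 were under the floor on both arrays.

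Genes that build ribosomes were higher on the array labelled c-Myc as a group. All 45 measured genes of rRNA processing and ribosome assembly had a difference above 0, from 0.35 to 1.65, with a median of 1.01, and 23 were called higher and 0 lower. Their summed signal was 110716 on the non-transformed array and 211490 on that labelled c-Myc. Lyar, a nucleolar growth protein, had signals of 1750, 3148, 5128 and 5494 (1.65). Noc2l, which helps assemble the large subunit, had 576.3, 1074, 1750.2 and 1779 (1.63), and Dkc1, the enzyme that makes pseudouridine in rRNA, had 3710, 6791, 9510 and 9581 (1.37). In each of these genes the non-transformed array was lowest, H-RasV12 lay between, and myr-Akt and c-Myc lay together. Nolc1 (1.39) and Heatr1 (1.38), both of the nucleolus, were of similar size, and of 3 probe sets of Nolc1 1 gave 0.87.

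Of 14 genes of RNA polymerase I, which transcribes rRNA, 6 were called higher and 0 lower (median 0.88). Against non-transformed, the list's median was 0.82 on the array labelled myr-Akt and 0.30 on that labelled H-RasV12. Polr1b, the second largest subunit of the polymerase, had signals of 431.2, 772.8, 1106 and 1401 (1.70). Taf1d, part of the factor that places the polymerase on the rRNA gene, had 705.4, 982.0, 1728 and 2392 by its brightest probe set (1.76), but its 7 probe sets ran from 0.56 to 1.76 with 2 past 2-fold. Taf1b (1.22), Polr1e (1.15) and Polr1c (1.11) were the next largest. With a pseudocount 3 of 14 passed 2-fold, and without probe sets that can bind several transcripts 3 of 10 did. Of 16 genes of RNA polymerase III, which makes tRNA, 2 were higher (12.5%, against 4.53% of all measured genes). They were Polr3g, a subunit linked to stem and tumour cells, at 184.7 and 651.4 on the 2 arrays (1.82), and Polr3e (551.9 and 1204). Polr3e was at 0.48 by its other probe set.

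The machinery downstream of ribosome assembly differed less. Of 28 cytosolic ribosomal protein genes only Rpl14 (678.7 and 1815) was past 2-fold, and their median was 0.04. Medians were 0.32 for 33 translation factors (Eif1a at 1.03), 0.33 for 21 aminoacyl-tRNA synthetases (Farsa at 1.02) and 0.53 for 45 mitochondrial ribosomal proteins (Mrps5 and Mrps27, both at 1.03). Eif1a, Farsa, Mrps5 and Mrps27 lay at the edge of 2-fold, and 1 probe set of Mrps5 gave -0.15. None of 34 splicing genes passed 2-fold, although 33 were above 0 and their median was 0.60, and none of 34 proteasome subunits did (median 0.26).

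Promoters were looked at for the E-box because genes of ribosome assembly shared a direction. Windows of 250 bases before to 50 after the RefSeq start site (mouse assembly GRCm38.p6) were at hand for 8524 of the 10420 measured genes. CACGTG, which reads the same on both strands, was found in 64 of 381 genes that were at least 2-fold higher (16.8%), in 905 of 7169 within 2-fold (12.6%) and in 72 of 974 that were at least 2-fold lower (7.39%). Over all 27025 genes with a window the share was 8.09%. Among the higher genes of ribosome assembly it was in 3 of 20, and among all with a window in 8 of 40. For RNA polymerase I these counts were 0 of 6 and 2 of 14, and for nucleotide synthesis 0 of 8 and 4 of 29. Those 3 windows are shown with the E-box in capitals. They belong to Ltv1 (1.26 on the log2 scale), an assembly factor of the small subunit, at chr10:13193088-13193387 on the minus strand; Wdr43 (1.16), a part of the same pathway, at chr17:71615965-71616264 on the plus strand; and Utp20 (1.05) at chr10:88826765-88827064 on the minus strand. The window of Shmt1, the largest difference of the 3 lists, at chr11:60811216-60811515 on the minus strand, holds none and is shown for contrast.
Ltv1: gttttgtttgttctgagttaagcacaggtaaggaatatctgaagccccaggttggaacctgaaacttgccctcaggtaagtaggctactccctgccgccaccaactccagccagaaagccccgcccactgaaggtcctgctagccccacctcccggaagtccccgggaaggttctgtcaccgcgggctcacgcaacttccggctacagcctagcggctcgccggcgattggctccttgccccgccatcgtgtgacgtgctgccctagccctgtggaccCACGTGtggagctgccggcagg
Wdr43: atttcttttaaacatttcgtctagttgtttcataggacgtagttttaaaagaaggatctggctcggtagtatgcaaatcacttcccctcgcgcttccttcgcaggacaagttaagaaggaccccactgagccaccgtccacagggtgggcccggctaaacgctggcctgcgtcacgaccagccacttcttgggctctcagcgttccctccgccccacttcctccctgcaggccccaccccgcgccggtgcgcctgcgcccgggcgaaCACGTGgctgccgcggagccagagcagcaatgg
Utp20: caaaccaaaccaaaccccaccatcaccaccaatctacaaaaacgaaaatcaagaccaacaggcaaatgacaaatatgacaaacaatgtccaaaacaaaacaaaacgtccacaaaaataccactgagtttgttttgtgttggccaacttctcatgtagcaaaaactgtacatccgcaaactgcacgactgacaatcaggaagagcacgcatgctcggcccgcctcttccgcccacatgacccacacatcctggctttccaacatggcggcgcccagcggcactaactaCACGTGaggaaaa
Shmt1: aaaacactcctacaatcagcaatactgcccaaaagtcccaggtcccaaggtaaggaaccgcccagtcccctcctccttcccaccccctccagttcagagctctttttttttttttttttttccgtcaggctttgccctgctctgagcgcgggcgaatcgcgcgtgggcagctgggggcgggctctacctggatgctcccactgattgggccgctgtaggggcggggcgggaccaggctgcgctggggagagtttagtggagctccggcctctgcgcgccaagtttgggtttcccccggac
In Ltv1, Wdr43 and Utp20 the first base of the E-box lies 28, 17 and 37 bases after the start site. A match is a run of letters in this window and says nothing of binding in these cells.

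Of nucleotide synthesis genes, 9 of 32 measured members were called higher, 1 was called lower and the median was 0.74. Against non-transformed, that median was 0.73 on the array labelled myr-Akt and 0.51 on that labelled H-RasV12. Besides Shmt1 and Cad, Dhodh, the mitochondrial step of pyrimidine synthesis, had signals of 347.6, 550.1, 882.0 and 1086 (1.64), and Umps, which completes that pathway, had 638.5, 1474, 1832 and 1904 (1.58). The other probe set gave 0.89 for Dhodh and 0.97 for Umps. Aldh1l2, which burns mitochondrial one-carbon units, went the other way, with 1742, 811.2, 881.7 and 521.7 (-1.74). Shmt1 and Aldh1l2 thus lay at opposite ends of the list. By the smallest difference among a gene's probe sets 5 of the 32 were called higher. Of 9 polyamine genes, Srm, which makes spermidine, was higher (4904 and 10828) and Sat1, which degrades it, lower (4349 and 1944).

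Nuclear transport and mitochondrial assembly followed. Of 42 nucleoporins and transport receptors, 7 were called higher and 0 lower (median 0.59). Against non-transformed, the list's median was 0.71 on the array labelled myr-Akt and 0.45 on that labelled H-RasV12. Nup210, a pore membrane protein, was at 26.5, 29.8, 472.2 and 924.7, at least 9.25-fold higher, by the 1 of its 2 probe sets that was measured. Rcc1, which charges Ran with GTP, had 694.2, 1258, 1805 and 1950.4 (1.49). Xpo4, an exporter, was at 1.46 by its brightest and 0.35, a bound, by its other probe set, and 4 of the 42 passed 2-fold by the mean over probe sets. Of 28 mitochondrial import and biogenesis genes, 6 were higher (median 0.56, and 0.59 on the array labelled myr-Akt against non-transformed). Ppargc1b, a coactivator of mitochondrial genes, had 145.2, 134.4, 908.5 and 956.9 (2.72), and Pprc1, a relative of it, 974.3, 1427, 1667 and 2061 (1.08). Timm9 was at 1.43, with a bound of 0.16 by its other probe set, and Tomm70a, an import receptor, at 1.12. No oxidative phosphorylation subunit of 44 passed 2-fold (median 0.23).

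Of 37 replication genes 11 were called higher and 0 lower (median 0.85). Against non-transformed, the list's median was 0.86 on the array labelled myr-Akt and 0.48 on that labelled H-RasV12. Cdt1, which loads the MCM helicase, had signals of 4158, 6048, 9582 and 10757 (1.37). Gins1, part of the active helicase, had 920.8, 1909.6, 2405 and 2376 (1.37), and Ticrr (247.4 and 610.4), Pole2 (749.7 and 1779) and Orc1 (205.3 and 497.3) were the next largest. The count was 6 by the mean over probe sets, and Orc1 was then at 0.93. Of 39 mitosis genes 38 were above 0 with a median of 0.60, and the median was 0.62 on the array labelled myr-Akt. Only Bub1b (1.08) and Ccna2 (1.03) passed 2-fold (5.13%, against 4.53% of all measured genes). Ccna2 was at 0.90 by the mean over probe sets. Of 36 repair genes 6 were higher, led by Ung, which removes uracil from DNA (1.29), Exo1 (1.28) and Chek1 (1.25, or 0.88 by the mean over its probe sets). With a pseudocount 3 of the 36 passed 2-fold. Uhrf1, which guides maintenance methylation of DNA, was at 984.6 and 2471 (1.33), and Dnmt3b, a de novo methyltransferase, at least 2.72-fold higher, among 3 of 17 DNA methylation and Polycomb genes. E2f2, a cell cycle factor, was at least 3.76-fold higher. By the other probe sets, as bounds, Dnmt3b was at 0.38 and E2f2 at 0.72.

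**Figure D3:**
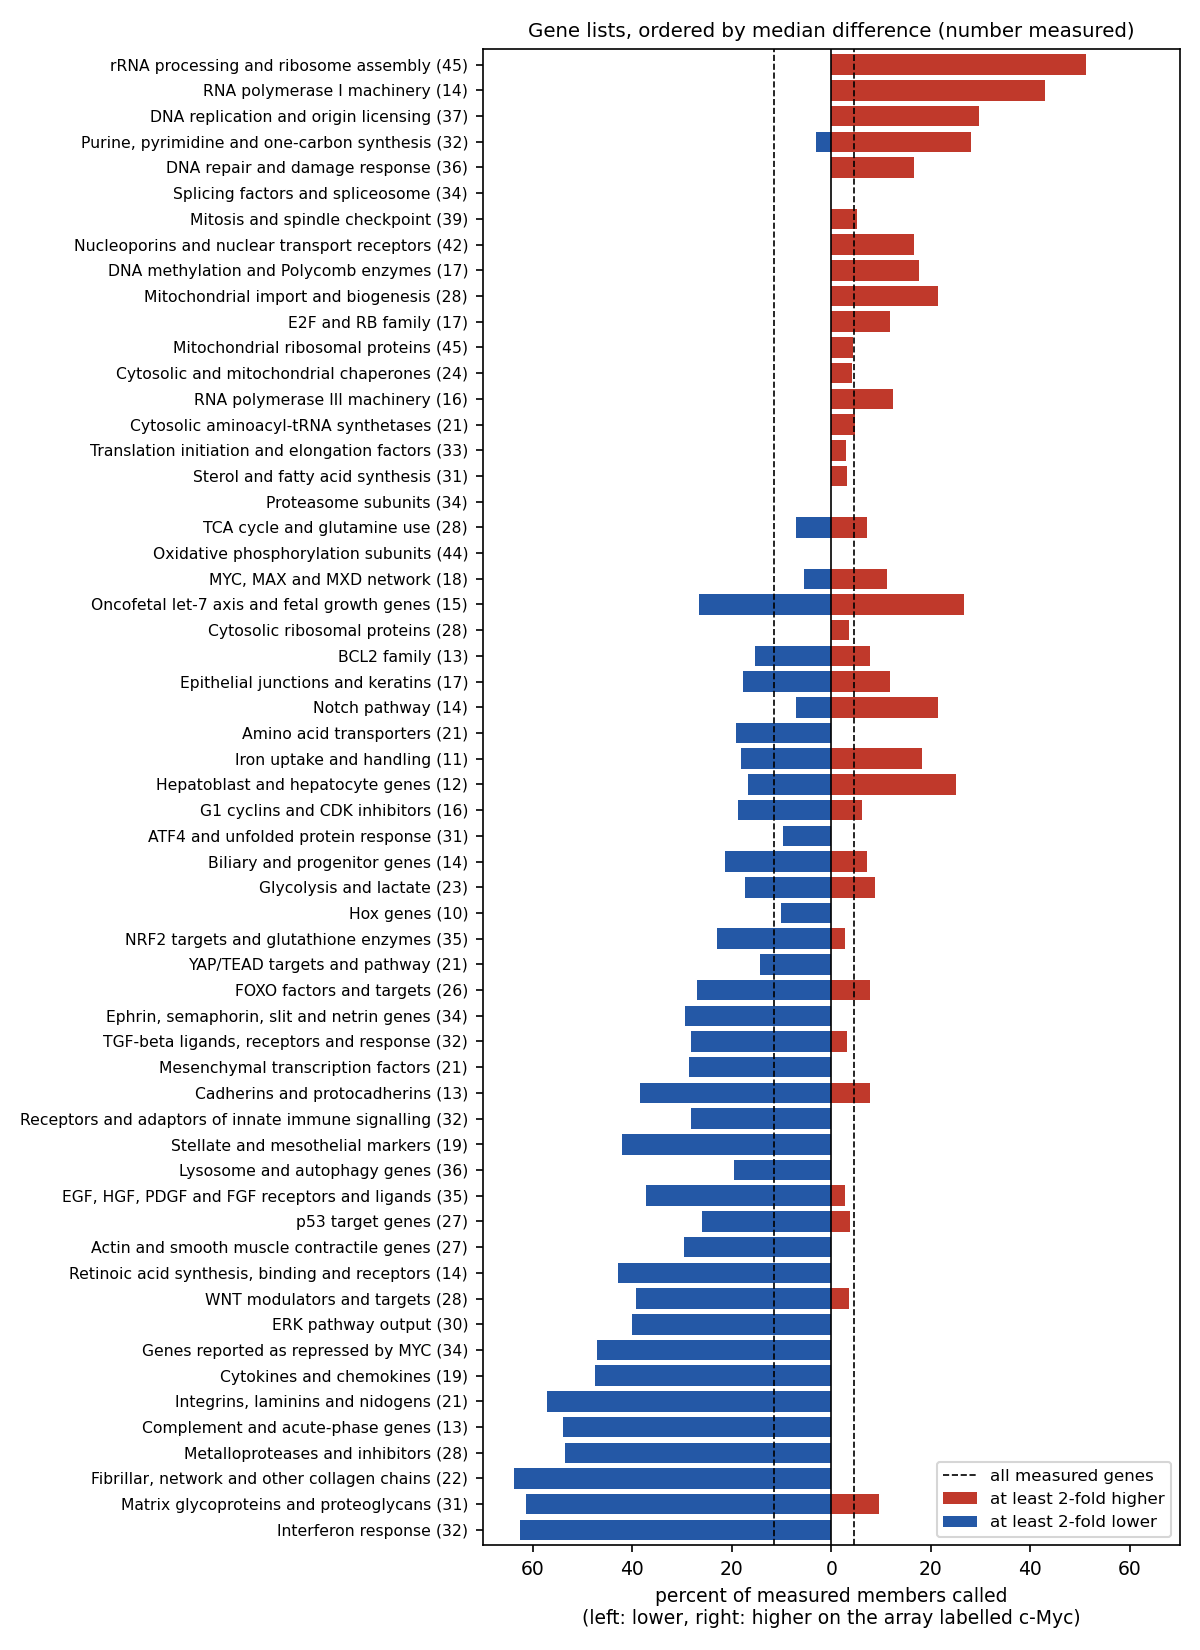
Percent of measured members at least 2-fold higher (right, red) and lower (left, blue) on the array labelled c-Myc for each gene list with 10 or more measured members, ordered by median difference, with dashed lines at the share over all measured genes (4.53% and 11.6%). Ribosome assembly, RNA polymerase I, replication and nucleotide synthesis stand at the top, and interferon response, matrix and collagen genes at the bottom.

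Of 16 G1 cyclins and CDK inhibitors 3 were called lower (18.8%, against 11.6% of all measured genes) and 1 higher (6.25%, against 4.53%), with a median of -0.15. Besides Ccnd1, the CDK inhibitor Cdkn1a had signals of 455.4, 585.5, 205.0 and 60.3 (at least 4.55-fold lower), and Cdkn2b, an inhibitor of CDK4 and CDK6, had 4539, 4598, 1162 and 1203 (-1.92). Cdkn1c, an imprinted CDK inhibitor, was the higher one at 102.7, 91.1, 1016 and 467.0 (2.18). Of 34 genes reported as repressed by MYC, 16 were called lower and 0 higher (median -0.86). They include Tgfbi, a matrix protein induced by TGF-beta (1896 and 73.9, at least 19-fold lower), and the metallothionein gene Mt2 (1886 and 215.2, -3.13). Many members of that list are matrix genes that other lists hold too. The list's median was -1.15 on the array labelled myr-Akt and -0.33 on that labelled H-RasV12, both against non-transformed. In the BCL2 family, the death-promoting Pmaip1 was higher (456.2, 50.3, 1608 and 1609, log2 1.82), while Bcl2 (581.7 and 176.5) and Bnip3 (3259 and 1181) were lower, and 10 of 13 were within 2-fold. The shares of that family were 15.4% lower and 7.69% higher. The lowest of 2 probe sets of Bcl2 in size gave -0.57. Of 27 p53 target genes, in cells that lack p53, 7 were lower (25.9%, against 11.6% of all measured genes). Pmaip1 alone was higher (3.70%, against 4.53%). Their median was -0.57, with Perp, a junction protein, at 830.1 and 111.9 (-2.89).

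Imprinted and fetal genes showed large differences in both directions, 4 of 15 higher and 4 lower. Dlk1, a surface protein of hepatoblasts, had signals of 116.7, 262.4, 145.1 and 1898 and stood highest on the array labelled c-Myc, 2.85 on the log2 scale above the next. The other of the 2 probe sets of Dlk1 was under the floor on both arrays compared. Meg3, the noncoding RNA of the same imprinted region, expressed from the other parental allele, had 7749, 6401, 959.4 and 1122 (-2.79). Of 10 measured probe sets of Meg3, 8 were at least 2-fold lower. Dlk1 and Meg3 thus differed in opposite directions. Plac1, a placental gene, had 245.4, 73.8, 3348 and 2810.4 (3.52), and Hmga2, a chromatin protein that let-7 restrains, had 9738, 15119, 784.3 and 1492 (-2.71), with 4 of 4 probe sets past 2-fold. Among other imprinted genes expressed from the paternal allele, Sgce (2156 and 766.6) and Ndn (854.3 and 323.3) were lower while Igf2 and Plagl1 were higher. By the smallest difference among probe sets 1 of the 15 was called lower, and without probe sets that can bind several transcripts 2 of 13 were called higher.

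Over 10679 genes above the floor on any of the 4 arrays, 31 (0.29%) were at least 2-fold higher on the array labelled c-Myc than on each of the other 3, and 64 (0.599%) at least 2-fold lower. Set directly against the array labelled myr-Akt, 215 of 9763 genes (2.2%) were higher and 163 (1.67%) lower. After Dlk1, Sfrp2, which modulates WNT, was farthest above, at 29.3, 26.5, 150.3 and 1017. Myl7, an atrial myosin light chain gene, had 188.1, 132.4, 129.5 and 1105, and the water channel gene Aqp1 5.8, 11.7, 147.7 and 547.3. Epb41l4b (78.3, 109.8, 74.8 and 469.6), Tm4sf5 (24.6, 38.8, 111.1 and 397.8), the intermediate filament gene Prph and the lubricin gene Prg4 were the others of the first 8. In each gene given with 4 signals here, the other 3 arrays were dim. Only 1 of 4 probe sets of Prph and 1 of 3 of Epb41l4b were measured.

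Farthest below the other 3 arrays was Il33, an alarmin cytokine, at 8515, 21390, 766.6 and 118.8. Mdk, a heparin-binding growth factor, had 2069, 3451, 502.0 and 108.1, and Parm1, a membrane protein, 1635, 1616, 580.7 and 117.4. Rarb, a retinoic acid receptor and itself a target of retinoic acid, had 605.9, 401.1, 972.6 and 106.9, and Cbr3, a carbonyl reductase, 1025, 1215, 1689 and 239.2. Rarb and Cbr3 were brighter on the array labelled myr-Akt than on the non-transformed one, which sets them apart from Mdk and Parm1. Col1a2, Cthrc1 and the pyrophosphate transporter gene Ank (1165, 4668, 405.6 and 75) completed the 8.

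**Figure D4:**
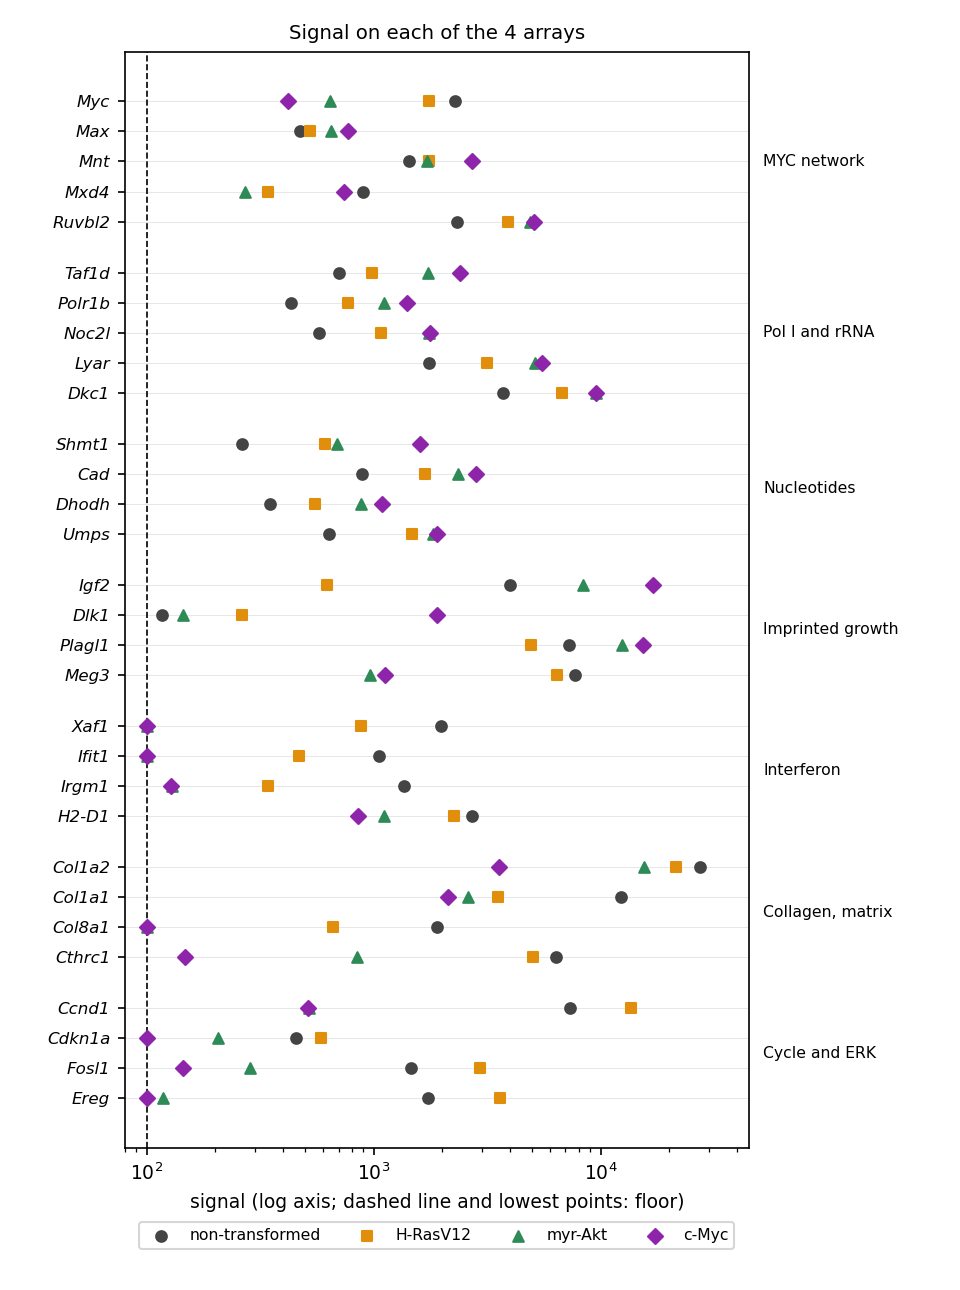
Signal on each of the 4 arrays (log axis, values under the floor drawn at it) for genes of 7 groups named in the text, 1 point an array. Ribosome and nucleotide genes step up from the non-transformed array to those labelled myr-Akt and c-Myc. Dlk1, by the 1 of its 2 probe sets that was measured, is high on the array labelled c-Myc alone.

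Interferon response genes were among the lowest lists, with 20 of 32 measured members called lower, 0 called higher and a median of -1.91. Of these 32, 15 were at the floor on the array labelled c-Myc, and with only genes above the floor on both arrays the count was 8 of 17, and without probe sets that can bind several transcripts it was 12 of 22. Xaf1, an interferon-induced regulator of cell death, had signals of 1975, 875.6, 50.2 and 1.3 (at least 19.7-fold lower). Irgm1, a GTPase of defence against intracellular microbes, had 1361, 342.0, 129.5 and 128.2 (-3.41). Ifit1, which binds foreign RNA, had 1056, 470.2, 56.3 and 14.3 (at least 10.6-fold lower), and Ifi47 936.6, 173.2, 27.1 and 81.1. In all 4 of these the non-transformed array was highest and H-RasV12 lay between. The sum over the list was 45191, 28043, 19438 and 18133 on the 4 arrays. Macrophage markers were at 592.3 and 447.1 in sum over 17 genes, with 15 under the floor on both arrays. Their part in the result was not tested.

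The promoters of these genes were searched on both strands for GAAA, any 2 bases and GAAA again, the core of the interferon-stimulated element. This was a motif added after the values were seen. It was in 10 of 18 lower members with a window (55.6%) and in 14 of 34 members of any call (41.2%). Over all genes with a window the share was 3.99%, and among the 974 lower genes 5.54%. Irgm1 and Ifit1 are shown because they are among the lower members above with matches, in capitals. The window of Irgm1 lies at chr11:48871371-48871670 on the minus strand and holds 2 overlapping matches that start at -30 and -24 from the start site. That of Ifit1, at chr19:34640639-34640938 on the plus strand, holds 2 on the opposite strand, at -104 and -85.
Irgm1: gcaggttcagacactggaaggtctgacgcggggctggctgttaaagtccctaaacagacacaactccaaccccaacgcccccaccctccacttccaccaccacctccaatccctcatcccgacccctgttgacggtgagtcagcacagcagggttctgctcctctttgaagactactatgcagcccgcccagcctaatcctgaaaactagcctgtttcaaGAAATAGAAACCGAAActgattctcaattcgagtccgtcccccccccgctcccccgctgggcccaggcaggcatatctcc
Ifit1: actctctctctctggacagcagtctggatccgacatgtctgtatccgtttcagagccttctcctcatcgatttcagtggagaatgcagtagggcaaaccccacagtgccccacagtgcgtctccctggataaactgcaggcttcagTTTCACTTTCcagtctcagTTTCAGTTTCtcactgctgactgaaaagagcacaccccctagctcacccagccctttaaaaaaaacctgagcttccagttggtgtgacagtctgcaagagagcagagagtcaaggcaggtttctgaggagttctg
The list itself consists of genes known to be induced by interferon, so the share describes the list and not these cells.

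Of 19 cytokines and chemokines 9 were called lower (47.4%, against 11.6% of all measured genes) and 0 higher (median -0.91). Besides Il33, Cxcl12, a chemokine of stromal cells, had signals of 12667, 7795, 2755 and 1657 (-2.93) and Il18 had 1114, 140.3, 435.1 and 118.1 (-3.24). Il11 (1169 and 3.4) and Cx3cl1 (552.0 and 36.4) were at the floor on the array labelled c-Myc. Of 13 complement and acute-phase genes 7 were lower (median -1.11), with the iron-siderophore binder Lcn2 at 1675 and 4.1, the protease genes C1s1 (5014 and 487.0) and Masp1 (1468 and 172.8), and Cd59a (376.3 and 84.9). With only genes above the floor on both arrays 4 of 9 were lower. Of 32 receptors and adaptors of innate immune signalling 9 were lower (28.1%, median -0.50), led by Tnfrsf1b (916.1 and 209.4) and Il1r1 (1408 and 417.4). By the smallest difference among probe sets 5 were lower.

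Of 22 measured collagen genes 14 were called lower and 0 higher (median -1.50), and 9 of 16 were with only those above the floor on both arrays. Col1a1, the partner chain of Col1a2, had signals of 12325, 3537, 2598 and 2120.3 (-2.54, and -2.42 by its other probe set). The 3 probe sets of Col1a2 lay between -3.25 and -2.53. Col1a1 was thus at least 2-fold lower on all 3 arrays labelled with an oncogene, while Col1a2 was at least 2-fold lower only on that labelled c-Myc. Col8a1 was at least 19.1-fold lower, Col4a4 at least 6.06-fold and Col7a1, which anchors skin basement membrane, at least 5.82-fold. By its smallest probe set Col4a4 was at -0.45. The summed signal of the collagen list was 158193, 75570, 84799 and 70148 on the 4 arrays.

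Of 31 matrix glycoproteins and proteoglycans 19 were called lower and 3 higher (median -1.53). The list's median was -0.81 on the array labelled H-RasV12 and -1.69 on that labelled myr-Akt, both against non-transformed. Cthrc1, a collagen-associated secreted protein, had signals of 6392, 5030, 843.4 and 147.1 (-5.44), and Spon2 1841, 177.8, 1025 and 106.7 (-4.11). Loxl3, a collagen crosslinker (1463 and 138.0), Ltbp1, which stores latent TGF-beta (2454 and 245.1), and Mgp, an inhibitor of calcification (5030.3 and 589.0), were the next largest. Prg4 and the fibrillin gene Fbn2 were among the higher ones. Ltbp1 gave -0.39, a bound, by its other probe set.

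Of 21 integrins, laminins and nidogens 12 were lower and 0 higher (median -1.08), with Nid1, which links laminin to collagen, at 14087, 16995, 2223 and 2000.1 (-2.82). Itga1, a collagen receptor, was at 1516, 281.8, 377.4 and 250.2 (-2.60), and Lama2 at least 6.79-fold lower. Of 28 metalloproteases and inhibitors 15 were lower and 0 higher (median -1.17). Among them were Adam19 at 2229 and 110.2 (-4.34), Adamts12 at 2319 and 144.8 (-4.00), and Mmp23 and Mmp2 as given above. The list also counts Serpinf1, given above as an angiogenesis inhibitor, which is not a metalloprotease. On the array labelled myr-Akt the median was -1.41 for the integrin list and -1.65 for the metalloprotease list. On that labelled H-RasV12 these medians were -0.41 and -0.42, all against non-transformed. Of 27 actin and contractile genes 8 were lower (29.6%, against 11.6% of all measured genes, median -0.59). Actg2, a smooth muscle actin, was at 2832 and 185.9 (-3.93), Myl9 at 9849 and 1528 (-2.69) and Cnn1 at 5604 and 1187 (-2.24). With only genes above the floor on both arrays 5 of 24 were lower. Myh11, a smooth muscle myosin, was at least 14.5-fold lower, but by its other probe set -0.35 as a bound.

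Stellate and mesothelial markers lay on the lower side with these lists, 8 of 19 lower and 0 higher (median -0.51). The lower count was 3 of 13 with only genes above the floor on both arrays. Against non-transformed, the list's median was -1.03 on the array labelled H-RasV12 and -0.83 on that labelled myr-Akt. Both were below the median on the array labelled c-Myc. The summed signal of the list was 137681, 85450, 82379 and 91166 on the 4 arrays. Msln, a mesothelial surface protein, had signals of 7837, 3096, 238.3 and 348.0 (-4.49), and Crabp1, a retinoic acid binder, 4928, 2421, 1.9 and 12.8 (at least 49.3-fold lower). The pericyte markers Des (1175 and 67.8), Pdgfrb (769.8 and 22.8) and Rgs5 (623.2 and 7.6) were at the floor, although further probe sets of Pdgfrb and Rgs5, also at the floor there, did not pass 2-fold. Their part in the matrix result was not tested. In RNA of a whole culture, fewer cells of a type and less RNA per cell cannot be told apart. Of 21 mesenchymal transcription factors 6 were lower, among them Prrx1 (1932, 3046, 231.4 and 98.7, at least 19.3-fold), with 4 of 5 probe sets past 2-fold, and Snai2 (2382, 2982, 562.6 and 364.7, log2 -2.71). Twist2 was at least 4.87-fold lower, and Runx1 at -2.21, and 3 of 15 were lower with only genes above the floor on both arrays.

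Liver and duct lists were sparse. Against 11.6% lower over all measured genes, the lower share was 16.7% for hepatoblast and hepatocyte, 21.4% for biliary and progenitor and 17.6% for epithelial genes. In the same order the higher share was 25%, 7.14% and 11.8%, against 4.53%. Of 34 hepatoblast and hepatocyte genes with a probe set 12 were measured, 3 higher and 2 lower. Dlk1 and Igf2 were higher with Apoe, the lipid carrier gene (114.1, 97.2, 79.2 and 372.5, log2 1.71), and Apoa1, the main protein of HDL, was lower (638.2, 4300, 4.9 and 1.5, at least 6.38-fold) as was Rbp4 (at least 2.76-fold). Without probe sets that can bind several transcripts 1 of 8 was higher, and Apoe was at 0.90 and Rbp4 at -0.47 with a floor of 40% of the trimmed mean. Of 14 measured biliary and progenitor genes 3 were lower, Ncam1 (3655 and 395.2, -3.21), Cd44, a hyaluronan receptor (10918 and 1471, -2.89) and Sox9 (at least 3.88-fold), and Aqp1 was higher. Ncam1 passed 2-fold by 4 of 5 probe sets. Of 17 epithelial genes, Cgn, a tight junction protein (122.1 and 777.3, 2.67), and Pard6b, a polarity protein (1.31), were higher and Krt18, Krt8 and Cldn3 lower.

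Of 30 genes of ERK pathway output 12 were called lower (40%, against 11.6% of all measured genes), 0 higher and 18 were within 2-fold. The list's median was -0.85. It was -1.05 on the array labelled myr-Akt and 0.38 on that labelled H-RasV12, both against non-transformed. Ereg, an EGF receptor ligand, had signals of 1731, 3589, 118.0 and 49.0 (at least 17.3-fold lower), and Fosl1, an AP-1 factor, 1463, 2947, 284.5 and 144.9 (-3.34). Both were highest on the array labelled H-RasV12. Emp1, a membrane protein, was at 5694 and 559.3 (-3.35), with -0.40, a bound, by its other probe set. Of 35 receptors and ligands of the EGF, HGF, PDGF and FGF families 13 were lower (37.1%), 1 higher (2.86%) and 21 within 2-fold (median -0.56). Mdk, Fgf7, a growth factor of stroma (729.6 and 33.4), and Ptn, a relative of Mdk (952.5 and 149.3), were among the lower ones. Fgf7 and Ptn passed 2-fold by 2 probe sets each, whereas Mdk has only 1. Without probe sets that can bind several transcripts 8 of 28 were lower.

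Other signalling lists held members of both directions. Against 11.6% lower over all measured genes, the lower share was 39.3% for WNT, 28.1% for TGF-beta, 7.14% for Notch and 29.4% for ephrin, semaphorin, slit and netrin genes. In the same order the higher share was 3.57%, 3.1%, 21.4% and 0%, against 4.53%. Of 28 WNT modulators and targets 11 were lower and Sfrp2 alone higher (median -0.81), with the secreted inhibitor Dkk1 at 2688, 1621, 30.7 and 24.6 (at least 26.9-fold lower) and Wnt4 at 1006, 1231, 517.3 and 146.6 (-2.78). With only genes above the floor on both arrays 7 of 21 were lower. Of 32 TGF-beta genes 9 were lower and Id2, an inhibitor of differentiation factors (2012 and 4100, log2 1.03), higher (median -0.33). Tgfb1, the ligand, was at 1120 and 126.4 (-3.15) but at -0.10, a bound, by its other probe set, while Bmp1, a collagen-processing protease, was at -2.89 and -2.75 by 2. Inhba, an activin subunit, was at 1152 and 149.6 (-2.94). Of 14 Notch genes Jag2, a ligand (1.31), Dtx4 (1.08) and Hey1, a target (1.07), were higher and Notch1 lower (-1.14). By their other probe sets Dtx4 was at 0.50 and Notch1 at -0.12. With a pseudocount 0 of the 14 were past 2-fold in either direction. Of 34 ephrin, semaphorin, slit and netrin genes 10 were lower (median -0.33), led by Ntn4 (1193 and 101.5). By the smallest difference among a gene's probe sets 4 of the 34 were lower, and Ntn4 was at -0.40.

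Metabolic lists were mixed. Of 23 glycolysis genes 4 were lower (17.4%, against 11.6% of all measured genes) and 2 higher (8.70%, against 4.53%), with a median of -0.24. Hk1, the housekeeping hexokinase, had signals of 1514, 1883, 319.1 and 140.1 (-3.43), and Pfkfb4, which sets the flux through phosphofructokinase, 622.3, 898.6, 155.8 and 111.5 (-2.48). Aldoc, an aldolase of brain, was higher (401.4, 398.1, 1722 and 2911, log2 2.86) as was Slc16a1, a lactate transporter (3464, 2995, 11068 and 10504, log2 1.60). Without probe sets that can bind several transcripts 2 of 12 were lower. Pdk4, which restrains glucose oxidation, was at least 13-fold lower, Suclg2, of the TCA cycle, at 1.11 and the glutamine transporter Slc1a5 at 1.31. Of 11 iron genes 2 were higher (18.2%) and 2 lower (18.2%). Tfrc, the transferrin receptor (1691, 3824, 6650 and 4836, log2 1.52), and Slc40a1, the iron exporter (218.4, 130.2, 937.3 and 559.6, log2 1.36), were higher by their brightest probe sets. Cp, which oxidises iron, was lower by its brightest probe set (3024 and 368.0, -3.04). The other probe set gave 0.54 for Tfrc and 0.61, a bound, for Slc40a1. The 8 probe sets of Cp ran from -3.81 to -0.05, with 5 past 2-fold.

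Antioxidant, lysosomal and retinoid genes were set against the shares over all measured genes, 11.6% lower and 4.53% higher. Of 35 NRF2 targets and glutathione enzymes 8 were lower (22.9%) and 1 higher (2.86%, median -0.28). Gpx3, a secreted peroxidase, was at 1640.3 and 37.4 (at least 16.4-fold lower), Gpx7 at 2320.0 and 160.4 (-3.85) and Mgst3 at 1269 and 210.2 (-2.59). Gstm1, which conjugates glutathione, was higher at 905.0, 790.5, 3740 and 2785 (1.62). Of 36 lysosome and autophagy genes 33 were below 0, 7 called lower (19.4%) and 0 higher (median -0.54), with the protease Ctsc at 2185, 4365, 477.6 and 152.2 (-3.84) and Hexa, which degrades gangliosides, at 6547, 5373, 1542 and 1999 (-1.71). That count was 12 with median scaling. Of 14 retinoid genes 6 were lower (42.9%, median -0.67), among them Dhrs3, a retinal reductase (2769, 725.3, 1316 and 394.2, log2 -2.81), with Crabp1 and Rarb, and 3 of 8 were with only genes above the floor on both arrays. Of 7 S100 genes 4 were lower, with S100a4 at 10832, 843.7, 675.7 and 1303 (-3.06) and S100a13 at 1737, 1922, 310.2 and 290.8 (-2.58). Sterol synthesis had a median of 0.26, and the list of ATF4 and the unfolded protein response -0.21, with Elovl6 (1364 and 3506) the 1 past 2-fold upward and Atf5 (2237 and 827.5), Trib3 and Edem1 the 3 downward.

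Genes above the floor numbered 10216 on the non-transformed array and 9492 on that labelled c-Myc. As a measure of RNA integrity, the ratio of the 5′ to the 3′ control signals was 0.889 and 0.870 for beta-actin, and 1.24 and 1.26 for Gapdh.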

How the data were processed

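RNA from 4 cultures was measured on 1 array each. Values are MAS5 intensities on a linear scale as deposited, the tool being named in the submitters' processing notes without version, detection calls or filters. Each array already had a 2% trimmed mean of 500.003, per the values. With numpy 2.4.6 and pandas 2.3.3 (Python 3.11.15), arrays were brought to that mean, signals under 20% of it were set to this floor, log2 was taken, and the array labelled non-transformed was subtracted from the array labelled c-Myc.

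Probe sets were named from the platform annotation. Of 45101, 64 controls, 932 with several gene symbols and 9160 with none were left out of gene values. Of the 34945 left, 34741 matched RefSeq genes of GRCm38.p6 by Entrez identifier and 0 symbols were updated. The probe set with the highest mean signal over 4 arrays stood for a gene. A gene was called at 2-fold (log2 of 1). The count step was tested on simulated data with 4-fold changes put into bright probe sets only. That test does not bear on dim genes or on sizes near 2-fold. Groups have 1 array, so their number limits the precision, no p-value was computed and no batch could be told apart from a group.

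The 63 gene lists, the comparison and the rules were chosen with earlier results of these data known, so no list is independent evidence. Named were the first 12 genes a direction with every measured probe set past 2-fold, the 8 brightest called genes a direction, up to 5 called members of a list, the whole MYC network, genes with opposed probe sets, the 8 genes a direction farthest from the other 3 arrays, and promoters by size. Predicted genes were left out. Marker genes within 2-fold were named after their values were seen. List members without a named probe set were not analysed here. Alternatives were 9 settings of floor, scaling, filter and probe-set choice.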

Additional observations from a re-analysis of the deposited data

Results flagged for a closer look

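Signal was also present in probe sets that no comparison of genes used. Of 2023 measured probe sets with no gene symbol, 93 (4.60%) were past 2-fold upward on the array labelled c-Myc and 154 (7.61%) past it downward. Of 517 measured probe sets with several gene symbols, 21 (4.06%) were higher and 50 (9.67%) lower. Both were listed because these counts lie outside the main measurement. Groups of 1 array allow no check for outlying samples.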

How the results depend on the processing

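With 1 array a side, no replicate could be left out. No paired analysis was possible because the groups share only 1 replicate number. Across 9 alternatives the count of higher genes ran from 298 to 572 and that of lower genes from 837 to 1585, against 472 and 1211. The pseudocount gave 298 genes and 464 probe sets higher, against 472 and 823. The lower share of called genes was 72.0%, and it ran from 65.9% (quantile normalization) to 77.9% (pseudocount). Directional agreement of probe sets, 97.6% (Wilson interval 96.2% to 98.5%, counting error only), was 94.1% with a floor at 10%, 99.4% with a floor at 40%, 98.6% with the pseudocount and 96.1% with quantile normalization. Lists with a median of 0.5 or more numbered 12, and 7 by the probe set with the smallest difference; by that probe set Mrps5 (-0.15) and Mtm1 (-1.02) reversed. The cause was not tested beyond the choice itself. Of 245 named genes with a call, 166 kept it in every setting that measured them. Dim signals and the single array a side limit all sizes, and median scaling shifted differences by 0.06 on the log2 scale where neither value was at the floor.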
